A study of Mus musculus with 6 samples.

Results

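Integrins are cell surface receptors built from 1 alpha and 1 beta chain, and 8 of their genes, Itgb1, Itgb5, Itgav, Itga3, Itga5, Itga1, Itgb3 and Itga2, are described here in cultures labelled as primary mammary fibroblasts. By marker genes the cultures were mixed, and in 4 of 6 libraries the summed epithelial markers were above the summed fibroblast markers. They were chosen by symbol from a table of 12023 genes. The table used here holds 7 of the 8, and Itga1 is not among its genes. Of these 7, 6 passed the filter on low counts and were tested among 8752 genes, and Itga2 did not pass it. None of the 6 passed the test between BALB/c and C57BL/6 cultures, and Itga3 and Itgav spanned 12.0-fold and 15.4-fold between single libraries, while Itgb1 spanned 2.02-fold.

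The donors were untreated healthy females aged 8 to 12 weeks from the inbred strains C57BL/6 and BALB/c, with 3 biological replicates per strain and no labelled mutation. Cells of the mammary fat pad were freed with collagenases and DNase, cleared of red cells and grown for 4 days on plates coated with rat-tail collagen type I, itself a ligand of collagen-binding integrins. A magnetic separation is named, and the labels do not state which cells it kept. Reads from the 3′ ends of polyadenylated RNA were counted per gene, with total counts of 1035485 to 4665896 per library. Levels are in CPM, counts per 1000000 counts of a library whose total was scaled by TMM, and values given in threes follow replicates 1, 2 and 3 of a strain.

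The 2 chains of an integrin meet in the endoplasmic reticulum and reach the surface only as a pair, where the outer parts bind matrix and the short inner tails connect to talin, kindlin and the actin cytoskeleton. Itgb1 encodes the beta chain shared by the widest set of partners, among them the products of Itga1 and Itga2, which bind collagen, of Itga3, which binds laminin, and of Itga5, which binds fibronectin. Itgav encodes an alpha chain that pairs with the products of Itgb1, Itgb3 and Itgb5 and binds ligands with the peptide motif Arg-Gly-Asp, such as vitronectin, fibronectin and the latent form of TGF-beta. Fibroblasts use these receptors to attach to, pull on and arrange the matrix, while epithelial cells use the laminin receptors to hold to the basement membrane.

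Sequences upstream of 3 of the genes are shown because Itgb1 had the highest counts of the family and because Itga3 and Itgav, below, had the most distant patterns across the libraries. They come from RefSeq on GRCm38.p6, read 5′ to 3′ on the strand of the gene, and end at the gene start that GENCODE vM21 gives. Capitals mark the GC box GGGCGG on either strand, a motif that binds factors of the Sp family. The Itgb1 sequence is chr8:128685404-128685653 on the plus strand, that of Itgav is chr2:83724147-83724396 on the plus strand, and that of Itga3 is chr11:95076802-95076964 on the minus strand, where 163 of 250 bases are given because the rest lies inside the gene in that annotation.
Itgb1: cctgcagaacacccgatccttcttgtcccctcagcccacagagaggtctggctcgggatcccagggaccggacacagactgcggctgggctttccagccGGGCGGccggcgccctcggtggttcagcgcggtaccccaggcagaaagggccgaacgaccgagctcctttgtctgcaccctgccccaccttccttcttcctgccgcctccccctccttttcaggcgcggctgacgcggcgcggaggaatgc
Itgav: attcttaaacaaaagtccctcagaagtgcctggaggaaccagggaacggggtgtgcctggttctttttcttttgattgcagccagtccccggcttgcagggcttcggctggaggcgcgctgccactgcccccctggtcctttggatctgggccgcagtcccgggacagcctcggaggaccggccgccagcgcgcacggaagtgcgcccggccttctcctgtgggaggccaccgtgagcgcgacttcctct
Itga3: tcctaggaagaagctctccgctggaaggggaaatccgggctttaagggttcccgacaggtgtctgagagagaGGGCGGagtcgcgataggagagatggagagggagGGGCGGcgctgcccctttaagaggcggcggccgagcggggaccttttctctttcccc

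The windows of 250 bases behind these sequences held more G and C than most promoters, with 68.0% in Itgb1, 64.4% in Itgav and 67.6% in Itga3, against a median of 52.4% over all promoters. RefSeq gave a window for 7 of the 8 genes, and it had no entry for Itgb3. A GC box lay in 4 of the 7, those of Itgb1, Itgb5, Itga3 and Itga5, and in 32.7% of all 32851 windows. The window of Itga3 shown held 3 copies, of which 2 lie in the printed bases. RefSeq gave Itga3 another window, at chr11:95069199-95069448 inside the gene, with 50.8% G and C and 1 GC box. No window of the 7 held the AP-1 motif TGACTCA or the TATA box TATAAA on either strand, which 4.46% and 12.4% of all windows held. These matches describe letters and not bound sites.

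On GRCm38 the genes lay on 6 chromosomes. Itga1 and Itga2 are neighbours on chromosome 13 at 114953096 to 115101964 and 114833081 to 114932100. Itga3 and Itgb3 are both on chromosome 11, at 95044474 to 95076801 and 104608000 to 104670476. Itgb1 was at chromosome 8, 128685654 to 128733200, Itgav at chromosome 2, 83724397 to 83806916, Itga5 at chromosome 15, 103344286 to 103366763, and Itgb5 at chromosome 16, 33829665 to 33949338. None of the 8 had a near-identical copy at its 3′ end by the limits of the search. Exons of Itgav overlap those of Gm13684 on the opposite strand, and since it is not given whether counting used the strand, reads of the pair cannot be told apart. Exons of Itga1 overlap those of Gm49395 on the same strand.

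The libraries differed in what they held besides fibroblast RNA. Of 10 fibroblast markers 9 were in the table, and their summed level was 1688 to 6844 CPM in BALB/c and 1619 to 7987 CPM in C57BL/6. Of 18 mammary epithelial markers 16 were in the table, with a summed level of 2301 to 13794 CPM in BALB/c and 3834 to 24738 CPM in C57BL/6, and this sum was above the fibroblast sum in all libraries except BALB/c replicate 1 and C57BL/6 replicate 2. The table does not list the markers Krt15 and Trp63. C57BL/6 replicate 1 stood apart, with a mean correlation of 0.779 with the others across genes against 0.870 to 0.910. In bulk RNA fewer cells of a type and less RNA per cell cannot be told apart, and this applies to each level below. Nothing in the labels says how far the replicates were processed together, so p-values measure the spread between these samples.

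Itgb1 had the highest counts of the family in every library. Its level was 974, 1203 and 1003 CPM for BALB/c against 1963, 1069 and 1124 CPM for C57BL/6. C57BL/6 replicate 1 was high, and the other 5 libraries lay close together. Itgb1 took 41.0% to 51.6% of the summed counts of the 7 genes, and it stood at the 98.6th percentile of mean level among all tested genes.

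Itgb5, a beta chain that pairs with the product of Itgav and binds vitronectin, was at 411, 253 and 386 CPM for BALB/c against 652, 375 and 360 CPM for C57BL/6. The strains overlapped, with the lowest value in BALB/c replicate 2 and the highest in C57BL/6 replicate 1. Itga5, the alpha chain of the classical fibronectin receptor, was at 378, 202 and 413 CPM for BALB/c against 568, 617 and 247 CPM for C57BL/6. Here too the strains overlapped, since C57BL/6 replicate 3 lay below BALB/c replicates 1 and 3.

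Itga3, the alpha chain of a laminin receptor that is prominent in epithelia, was at 80.0, 477 and 401 CPM for BALB/c against 959, 120 and 457 CPM for C57BL/6. The low libraries were BALB/c replicate 1 and C57BL/6 replicate 2, 1 of each strain, and the span from lowest to highest was 12.0-fold. Itgb3, a beta chain best known from platelets and from the vitronectin receptor, was at 62.7, 174 and 169 CPM for BALB/c against 194, 70.3 and 160 CPM for C57BL/6, and its low libraries were the same pair.

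Itgav had the widest span, 15.4-fold. It was at 97.4, 11.5 and 70.6 CPM for BALB/c against 7.64, 118 and 80.4 CPM for C57BL/6. BALB/c replicate 2 and C57BL/6 replicate 1 were far below the other 4 libraries, with 32 and 10 counts, whose exact 95% Poisson intervals reached up to 16.2 and 14.0 CPM. Of the other 4 the lowest, BALB/c replicate 3, had an interval that began at 55.4 CPM, so the intervals did not meet. A span of at least 5-fold was seen in Itgav and Itga3, or 2 of the 6 tested integrins, and in 25.3% of all tested genes.

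Itga2, an alpha chain of a collagen receptor, was near the limit of detection, with 5, 28 and 3 counts for BALB/c against 0, 4 and 21 counts for C57BL/6. These correspond to 3.34, 10.02 and 2.90 CPM and to 0, 3.13 and 4.29 CPM. In C57BL/6 replicate 1 a count of 0 allows up to 2.29 CPM, taken as 3 counts. Intervals and this limit cover counting error only. At this depth a difference between the strains could not be resolved for Itga2, and without a filter on low counts its log2 difference was 1.04 ± 0.89 (SE, edgeR adjusted p = 0.961).

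**Figure D1:**
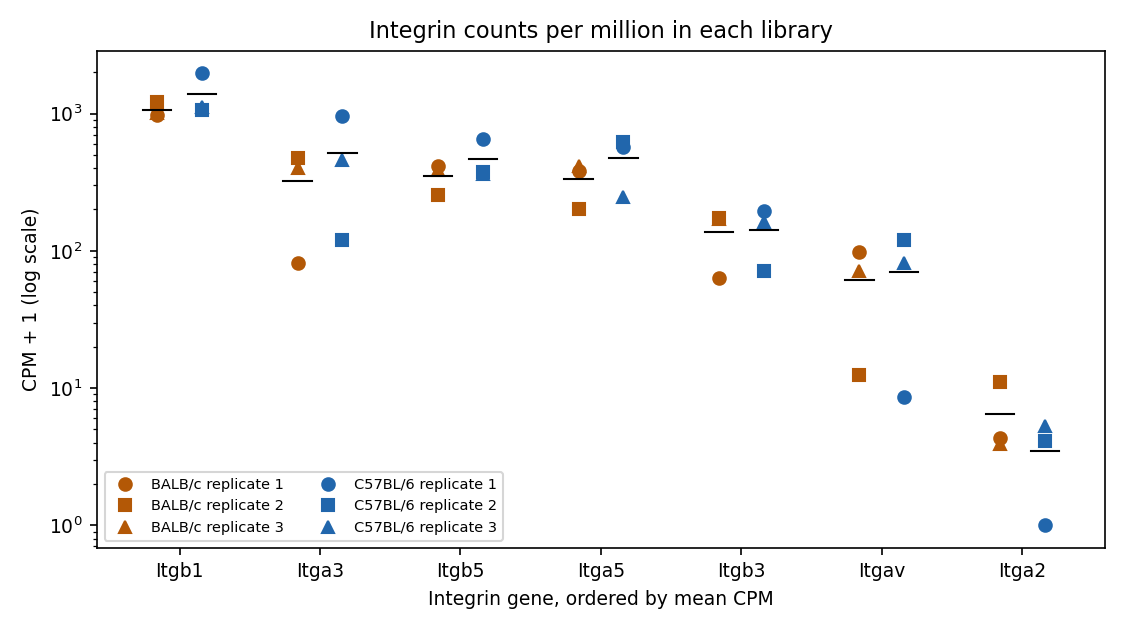
CPM plus 1 on a log scale for the 7 integrin genes of the table, with a symbol for each of the 6 libraries and a bar at the mean of each strain (n = 3). Itgb1 is highest in every library, and the low points of Itga3 and Itgav belong to different libraries.

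The mean over the 6 libraries put the genes in the order Itgb1, Itga3, Itgb5, Itga5, Itgb3, Itgav and Itga2. Levels are counts from 3′ ends, not divided by transcript length, and the dependence of the order on length and end composition was not tested. Neighbours in the order were set side by side within libraries as a description, since the same libraries gave the order. Itgb1 was above Itga3 in 6 of 6 libraries, by a mean of 1.95 ± 1.11 on the log2 scale (SD, n = 6). Itga5 was above Itgb3 by 1.56 ± 1.11 and Itgav above Itga2 by 3.31 ± 1.69 on the same scale, each in 6 of 6 libraries.

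Other neighbours changed places between libraries. Itga3 was above Itgb5 in 4 of 6 libraries, and the mean log2 difference, Itga3 minus Itgb5, was -0.35 ± 1.32 (SD, n = 6). For Itgb5 minus Itga5 it was 0.06 ± 0.44, with Itgb5 higher in 4 of 6 libraries. For Itgb3 minus Itgav it was 1.52 ± 2.18, and Itgav was the higher of the pair in BALB/c replicate 1 and C57BL/6 replicate 2. In these 3 pairs the difference was smaller than its spread.

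The design asks how mammary fibroblasts of the strains differ at baseline. Of the 6 tested integrins 0 passed an adjusted p of 0.05 in edgeR's quasi-likelihood test, where 18 of 8752 genes, or 0.206%, did. At an unadjusted p under 0.05 the count was also 0, against 3.86% of all genes. DESeq2 and limma-voom called 0 of the 6 as well, against 0.811% of all genes in DESeq2 and 3 of 8752 in limma-voom. No member had strains that did not overlap, a pattern that 11.4% of tested genes showed.

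All 6 log2 differences, BALB/c minus C57BL/6, were negative, with a median of -0.39 beside 0.014 over all tested genes. Itgb1 was at 1060 ± 125 CPM for BALB/c against 1386 ± 501 CPM for C57BL/6 (SD, n = 3 each), with a log2 difference of -0.39 ± 0.30 (SE, edgeR adjusted p = 0.954). C57BL/6 replicate 1 held the highest value of Itgb1, Itgb5, Itga3 and Itgb3. Without it the differences of Itgb1 and Itgb5 were -0.06 and -0.08, that of Itga5 -0.39, and those of Itga3 and Itgb3 turned positive at 0.14 and 0.21. Itgav went further from 0 without that library, from -0.22 to -0.77.

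A p that misses the threshold does not show equal expression, and the intervals differ in what they still allow. For Itgb1 the 95% interval of the log2 difference ran from -1.08 to 0.31. Itgb5 had a difference of -0.40 with an interval of -1.17 to 0.37, and Itga5 one of -0.53 with an interval of -1.52 to 0.47. These 3 genes had the narrowest intervals of the family.

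For the others the intervals were wider. Itga3 had a log2 difference of -0.68 and an interval of -2.62 to 1.26, and its level was 319 ± 211 CPM for BALB/c against 512 ± 423 CPM for C57BL/6 (SD, n = 3 each). Itgav had -0.22 with an interval of -2.50 to 2.06, around 59.8 ± 44.0 CPM for BALB/c against 68.7 ± 56.1 CPM for C57BL/6. Itgb3 had -0.07 with an interval of -1.23 to 1.10. The direction depended on single libraries. Itgav was at 0.29 without BALB/c replicate 2 and at 0.37 without C57BL/6 replicate 2, and Itgb3 was at 0.27 without BALB/c replicate 1 and at 0.013 without C57BL/6 replicate 3. The direction of Itgb3 also depended on the scaling, with 0.0079 under upper quartile scaling and 0.025 with library totals alone.

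**Figure D2:**
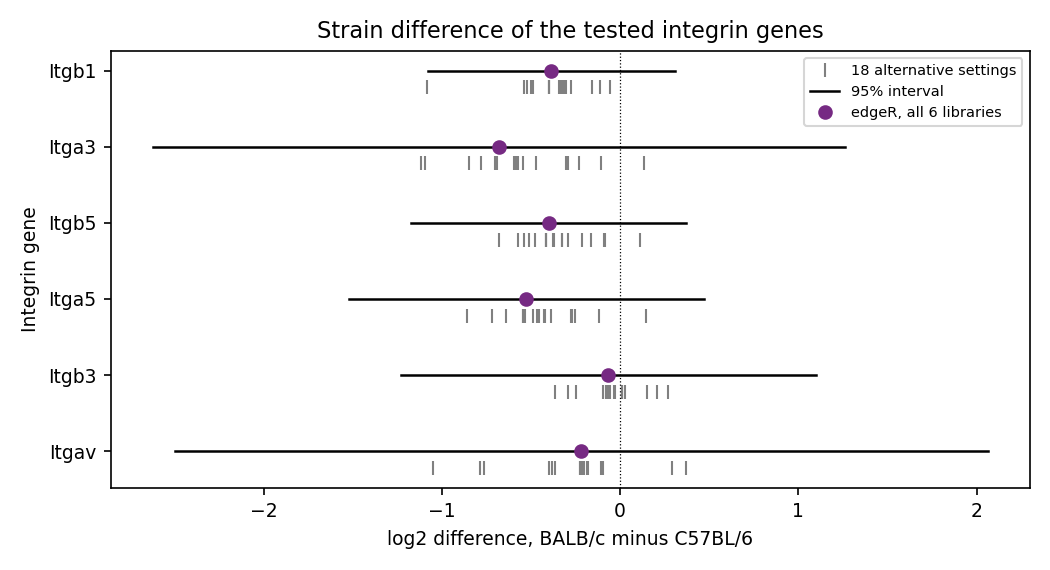
Log2 difference between the strains (BALB/c minus C57BL/6, x axis) for the 6 tested integrins (y axis), with the edgeR estimate as a point, its 95% interval as a line, and the estimates of 18 alternative settings as ticks. Every interval crosses 0, from -1.08 to 0.31 for Itgb1 to -2.50 to 2.06 for Itgav.

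Within the strains the libraries fell into patterns that the integrins did not share. Relative to its own mean over 6 libraries, the log2 level of Itga3 was -1.92, 0.64 and 0.39 for BALB/c against 1.65, -1.35 and 0.58 for C57BL/6. The summed mammary epithelial markers on the same scale were at -1.91, 0.67 and 0.29 for BALB/c against 1.51, -1.18 and 0.62 for C57BL/6. The root mean square distance between these profiles was 0.099, where Itga3 itself varied by 1.23, and its distance from the summed fibroblast markers was 2.08. Itga3 was thus high where epithelial marker counts were high. The parts of epithelial cells and of transcript composition, described below, in its level were not tested.

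Itgb3 had the same low and high libraries over a smaller range, from -0.999 in BALB/c replicate 1 to 0.62 in C57BL/6 replicate 1. Its distance from the epithelial markers was 0.562, where Itgb3 itself varied by 0.655. From the endothelial and macrophage markers it was 0.605 and 0.709 away, so its profile was not particularly near the epithelial one. BALB/c replicate 1 and C57BL/6 replicate 2 were both below the other 4 libraries in 15.3% of all tested genes. Itgb4, the beta chain of the hemidesmosome integrin and no member of the set, was at 34.7, 233 and 286 CPM for BALB/c against 422, 55.5 and 252 CPM for C57BL/6. Its partner Itga6 was at 10.7, 71.2 and 30.0 CPM for BALB/c against 29.8, 25.8 and 40.2 CPM for C57BL/6, and thus was not highest where Itgb4 was.

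Itgav went the other way. Its log2 level relative to its mean was 1.16, -1.83 and 0.70 for BALB/c against -2.36, 1.44 and 0.89 for C57BL/6. The nearest marker profile was that of the fibroblast markers, at a distance of 0.800, where Itgav itself varied by 1.51. That of the epithelial markers was 2.51 away. The part of fibroblasts in the level of Itgav was not tested. BALB/c replicate 2 and C57BL/6 replicate 1 were both below the other 4 libraries in 10.9% of all tested genes.

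The transcript of Itgav also differs from that of Itga3 in composition. Its last 500 nt hold 32.4% G and C and its length is 7054 nt, at the 6.08th percentile of end composition and the 92.8th of length among the genes of the table, while Itga3 has 57.8% in its last 500 nt, at the 96.0th percentile. The 278 tested genes with at most 35% G and C at the end and at least 5000 nt had a median log2 level of -1.63 in C57BL/6 replicate 1, relative to the mean of 6 libraries, and of 0.21 to 0.54 in the other 5. Across genes, end composition and length accounted for 46.3% of the variance of these deviations from the mean of 6 libraries in C57BL/6 replicate 1. In the others they accounted for 4.71% to 19.2%. In BALB/c replicate 2 the 278 genes stood at 0.22 while Itgav stood at -1.83. The 1001 tested genes with at least 55% G and C at the end, as in Itga3, had a median of 0.72 in C57BL/6 replicate 1. In the other 5 libraries their median was -0.21 to -0.06, lowest in C57BL/6 replicate 2 and BALB/c replicate 1. The part of transcript composition in the levels of Itgav and Itga3 was not tested. Itga2 has a like transcript, with 32.8% and 7108 nt, and was at 0 counts in C57BL/6 replicate 1.

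Itgb1, Itgb5 and Itga5 varied less. Their root mean square deviations over the 6 libraries were 0.341, 0.399 and 0.583 on the log2 scale, against 0.655 for Itgb3, 1.23 for Itga3 and 1.51 for Itgav. Itgb1 and Itgb5 were the closest pair of the family, at a distance of 0.317, and Itgav and Itga3 the most distant, at 2.57.

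**Figure D3:**
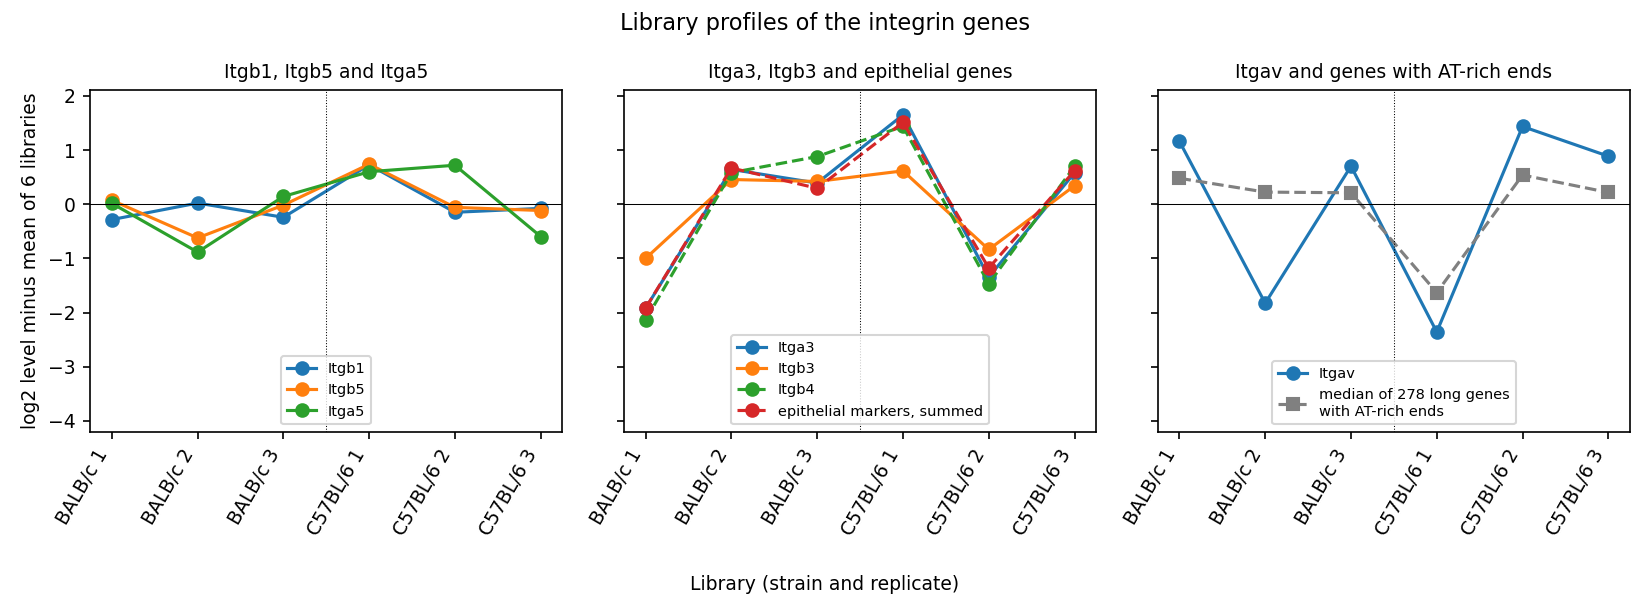
Log2 level of each gene in each library minus its mean over the 6 libraries, in 3 panels that share the y axis, with the summed epithelial markers and Itgb4 dashed in the middle panel and the median of 278 long genes with AT-rich ends dashed in the right panel. Itga3 runs along the epithelial markers from -1.92 to 1.65, and Itgav is lowest in BALB/c replicate 2 and C57BL/6 replicate 1.

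For each tested integrin the 3 genes with the nearest profile were sought among 4688 genes whose mean log2 CPM reached 5. For Itga3 these were Pkp3, Wnt7b and Cldn7, at 0.097 to 0.126, and Cldn7 is in the list of epithelial markers. For Itgav they were Vps35, Atxn7l3b and Wnk1, at 0.262 to 0.357. Itgb3 had Inava, Fam110a and Trib1, at 0.074 to 0.125, Itgb1 had Pmm2, Cdc34 and Mrps27, at 0.051 to 0.072, Itgb5 had Vav2, Mospd3 and Abhd8, at 0.056 to 0.087, and Itga5 had Palm, Rcn3 and Igfbp3, at 0.199 to 0.236. These distances are descriptions over 6 libraries.

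Ratios of partner genes within a library do not depend on its scaling, but at low counts the 2 added to each count shifts them with depth. Of 9 planned ratios 8 could be computed, and the exact two-sided permutation test of 3 against 3 libraries cannot go below p = 0.1. The log2 ratio of Itgb5 to Itgav, the chains of a vitronectin receptor, was 2.06, 4.38 and 2.42 for BALB/c against 6.16, 1.66 and 2.16 for C57BL/6. Counts of Itgb5 were above those of Itgav in every library, and the means of the strains differed by -0.37 (exact permutation p = 0.9, n = 3 each).

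For Itgb3, which encodes another partner of the same alpha chain, the log2 ratio to Itgav was -0.62, 3.84 and 1.24 for BALB/c against 4.42, -0.73 and 0.99 for C57BL/6, so that its direction changed between libraries of the same strain. Itgb3 was below Itgb5 in all 6 libraries, with log2 ratios of -2.69 to -0.54. That order between the beta chains held in both strains, whose means differed by 0.30 (exact permutation p = 0.8, n = 3 each).

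Among partners of Itgb1 the log2 ratio of Itga5 to Itgb1 ran from -2.57 to -0.79 and that of Itga3 to Itgb1 from -3.58 to -1.03. Itga5 exceeded Itga3 in BALB/c replicates 1 and 3 and in C57BL/6 replicate 2, and Itga3 exceeded Itga5 in the remaining 3 libraries. Neither ratio differed between the strains beyond its spread (exact permutation p = 0.9 and 0.5, n = 3 each). The ratio of Itgb1 to Itgav lay between 3.16 and 7.74 (exact permutation p = 0.8, n = 3 each). With 2 added to each count, the ratio of Itga2 to Itgb1 was the single one whose strains did not overlap, by -7.71 against -7.83 at the nearest libraries. Its p was 0.1 by exact permutation, with an adjusted p of 0.8 over the 8 ratios. The separation depended on the added counts. In raw counts the ratio was higher in C57BL/6 replicate 3, with 21 to 5509, than in BALB/c replicate 1, with 5 to 1460. The ratio rests on Itga2 counts of 0 to 28, and the difference of the strain means, 1.29, was 0.47 without C57BL/6 replicate 1.

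**Figure D4:**
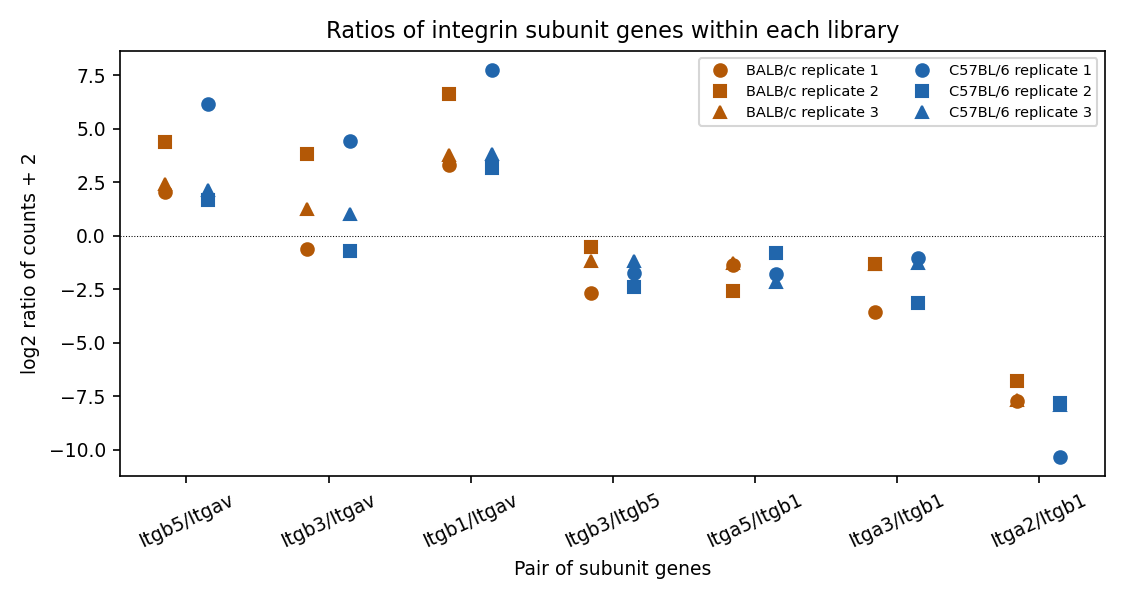
Log2 ratio of counts plus 2 between pairs of integrin genes (y axis) in each of the 6 libraries, by pair (x axis), with strains in separate colours. Ratios with Itgav as the divisor are highest in C57BL/6 replicate 1 and BALB/c replicate 2, in 1 library of each strain.

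Other genes of the integrin system were read from 8 lists, of which 111 members were tested. Of these 0 passed over all genes in edgeR, where 0.206% of all tested genes did, and 7, or 6.31%, had an unadjusted p under 0.05, against 3.86% of all tested genes. DESeq2, which called 0.811% of all genes, and limma-voom, which called 3 of 8752, also called 0 of the 111. The median log2 difference over the 111 was -0.14, with 44 positive and 67 negative.

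Of 19 other integrin subunits 13 were in the table and 8 were tested, with a median of -0.93. Itgam and Itgb2, whose products form the complement receptor of macrophages, had the lowest unadjusted p. Itgb2 was at 12.0, 13.2 and 17.4 CPM for BALB/c against 37.4, 20.3 and 38.0 CPM for C57BL/6, with a log2 difference of -1.18 ± 0.38 (SE, edgeR adjusted p = 0.954). Itgam was at 8.67, 8.59 and 9.68 CPM for BALB/c against 16.8, 18.8 and 23.1 CPM for C57BL/6, a log2 difference of -1.13 ± 0.37 with the same adjusted p. All 12 macrophage markers were in the table, with a summed level of 662 to 979 CPM in BALB/c and 965 to 1829 CPM in C57BL/6. Of the 9 tested, 0 passed and 9 had a negative difference. An unadjusted edgeR p under 0.05 was found in 5 of the 9, against 3.86% of all tested genes. Strains without overlap were also found in 5, against 11.4%. The part of these markers in the levels of Itgam and Itgb2 was not tested. The 9 pericyte and smooth muscle markers of the table, of 11 listed, summed to 490 to 663 CPM in BALB/c and 931 to 1116 CPM in C57BL/6, without overlap. None of the 7 tested passed, and Cnn1 and Actg2, contractile genes of smooth muscle, had log2 differences of -1.25 and -1.42 (edgeR adjusted p = 0.239 and 0.278). These were the only 2 of the 7 whose strains did not overlap, a pattern of 11.4% of all tested genes. The gap of the sum was thus not shared by the other tested markers. Of the 7, 6 had a negative difference, with -0.15 for Cspg4, and Mcam had 0.07. The part of these markers in the negative differences of the integrins and of Actn1, Tns1 and Col4a1 was not tested. Of 9 adipocyte markers 3 were in the table, with a sum of 48.7 to 75.7 CPM. Endothelial markers summed to 78.7 to 183 CPM over all libraries, and 0 of 10 lymphocyte markers were in the table.

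Inside the cell, 15 regulators of integrin activity had a median log2 difference of 0.15, and 28 adaptors and kinases of focal adhesions one of -0.15. Tln1, talin, which switches integrins on from within, was at 695 ± 125 CPM for BALB/c against 772 ± 252 CPM for C57BL/6 (SD, n = 3 each). Flna, filamin A, which crosslinks actin and binds beta tails, had a log2 difference of -0.42 ± 0.26, and Actn1, an alpha-actinin, one of -0.64 ± 0.29 (SE). Tns1, a tensin of fibrillar adhesions, had -0.87 ± 0.36 and Ptk2b, a kinase related to focal adhesion kinase, -0.80 ± 0.32, with unadjusted edgeR p-values of 0.0463 and 0.0400 and an adjusted p of 0.954 each.

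At the membrane, 13 partners of integrins had a median of -0.07, among them the tetraspanin Cd63 at 2283 ± 113 CPM for BALB/c against 2396 ± 67.6 CPM for C57BL/6. Of 10 trafficking genes, with a median of -0.13, the sorting nexin Snx17, which returns beta chains to the surface, had -0.22 ± 0.21 (SE) and Rab21, a small GTPase that binds alpha chains, 0.55 ± 0.40. Between single libraries Cd63 and Snx17 spanned 1.12-fold and 1.33-fold, where Itgav spanned 15.4-fold. Other genes of these lists were not as steady, with 17.6-fold for the membrane partner Cd47 and 14.2-fold for the trafficking gene Vps35.

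Ligands outside the cell ranged from low to high counts. Of 16 ligands with an Arg-Gly-Asp motif, with a median log2 difference of -0.13, Fn1, fibronectin, was at 2871, 3016 and 3879 CPM for BALB/c against 704, 2940 and 2588 CPM for C57BL/6. Spp1, osteopontin, was at 2851, 2626 and 2200 CPM for BALB/c against 244, 1351 and 1218 CPM for C57BL/6, and all BALB/c libraries were higher (log2 difference 1.45 ± 0.57, SE, edgeR adjusted p = 0.954). C57BL/6 replicate 1 was the lowest library for both. Of 11 collagen genes the basement membrane chains Col4a1 and Col4a2 had the lowest p, with log2 differences of -1.09 ± 0.32 (SE, edgeR adjusted p = 0.882) and -0.82 ± 0.31 (edgeR adjusted p = 0.954). Of 10 laminin chains, with a median of -0.09, Lama3, a laminin alpha chain of epithelial basement membranes, had a log2 difference of 0.88 ± 0.53 (SE), and Lama2, the chain of muscle and mesenchymal basement membranes, one of -0.80 ± 0.63. Neither passed the test, and 6 of the 10 chains had a negative difference.

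**Figure D5:**
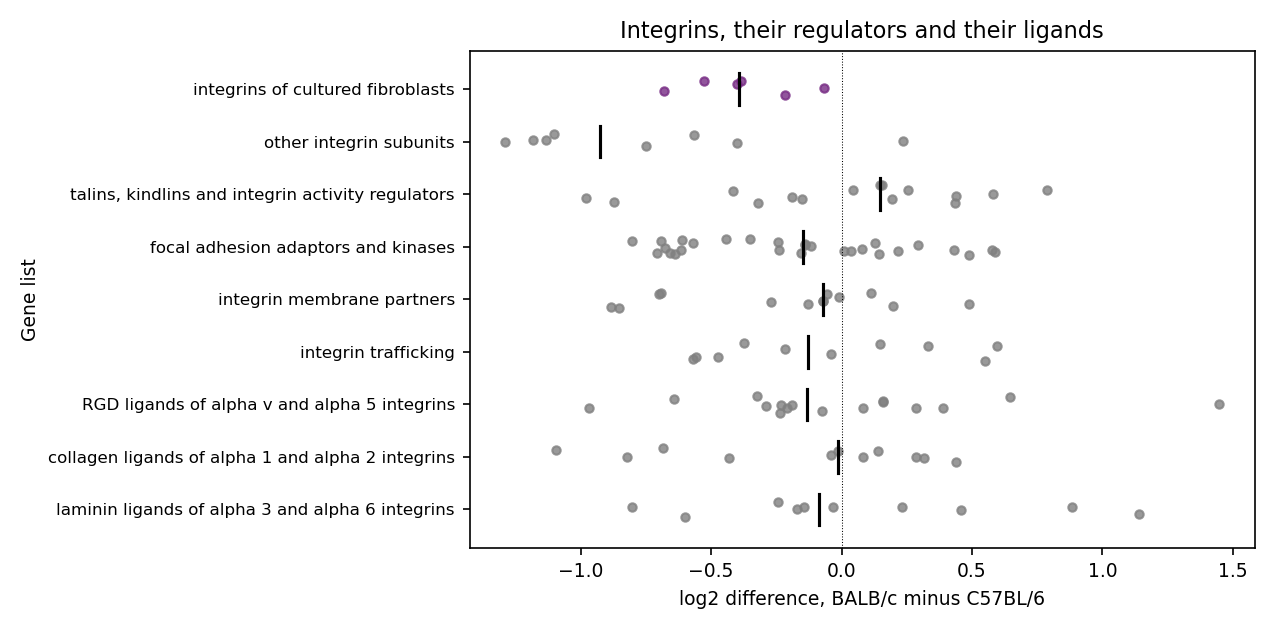
Log2 difference between the strains (BALB/c minus C57BL/6, x axis) for each tested gene of the integrin set and of 8 related lists (y axis), with a bar at the median of each list. The 6 integrins lie between -0.68 and -0.07, inside the range of their regulators and ligands, and none passed the test.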

How the data were processed

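The authors deposited raw counts per gene symbol for the 6 libraries. The tools HTSeq, STAR 2.4.2a and bcl2fastq and the build mm10 stand in the submitters' processing notes. Annotation, strand setting and use of molecular identifiers: not given in the sources used here. Columns were matched by the library names in the labels. Each listed gene reaches at least 6 counts in some library. The build is a C57BL/6 genome, and loss of BALB/c reads at strain variants was not tested.

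The test of strain was edgeR 4.0.16 under R 4.3.3 (filterByExpr, TMM factors, robust quasi-likelihood fit, strain as the only term, two-sided, Benjamini-Hochberg over 8752 genes, threshold 0.05). Errors of log2 differences are the difference divided by the square root of F, and intervals use the t distribution with the moderated degrees of freedom. The biological coefficient of variation was 41.1%. DESeq2 1.42.0, limma 3.58.1, other scalings and filters, a replicate block and left-out libraries were alternatives. Profiles and ratios use a prior count of 2. A planned sign-flip test between neighbours in level is not given, since the libraries tested also set the order. Positions come from GENCODE vM21 on GRCm38, the assembly of mm10, and located 99.6% of genes. Copies were searched with BLAST+ 2.17.0 over the last 500 nt at 95% identity over 60 nt. Markers and lists were read whole. Candidates for naming were, in each list, the 2 genes highest in mean level and the 2 lowest in p, and for each tested member the 3 nearest profiles. The members, lists and rules were chosen with earlier results of these data known.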

Additional observations from a re-analysis of the deposited data

How the results depend on the processing

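No tested integrin and no gene of the integrin-related lists passed in any of the 18 alternatives. In edgeR 18 of all genes passed. The count was 11 with library totals alone, 71 with DESeq2, 3 with limma-voom, 57 with library quality weights, and 0 to 25 when each library was left out in turn, with 0 without BALB/c replicates 2 or 3 or C57BL/6 replicate 3 (205, 226 and 261 genes at an unadjusted p under 0.05), 4 without BALB/c replicate 1 and 5 without C57BL/6 replicate 2. Alternatives added after seeing the data gave 26 with a GC and length offset, 4 without BALB/c replicate 2 and C57BL/6 replicate 1 together, and 0 without BALB/c replicate 1 and C57BL/6 replicate 2 together (308 at an unadjusted p under 0.05). With the replicate number as a block the count was 0 (158 at an unadjusted p under 0.05). Same-numbered libraries had correlations of -0.42, -0.40 and -0.08 of their deviations from the strain means across genes, so the numbers are not taken as pairs.

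Itgb1 kept its direction in all 18 alternatives, from -1.08 with the GC and length offset to -0.06 without C57BL/6 replicate 1. Itgb5 turned to 0.11 without BALB/c replicate 2 and C57BL/6 replicate 1 together, and Itga5 to 0.15 with quality weights. Itgb3 turned to 0.0079 with upper quartile scaling, 0.025 with library totals alone, 0.0080 when genes under a mean count of 50 were dropped, and 0.15 with the GC and length offset. With that offset Itga3 was at -0.11, beside -0.68 in the main test. Leaving out a library in turn gave -0.79 to 0.37 for Itgav, -1.12 to 0.14 for Itga3 and -0.37 to 0.27 for Itgb3. In the same way the strain differences of the ratios ran from -1.20 to 1.05 for Itgb5 to Itgav, -1.25 to 1.36 for Itgb3 to Itgav, -1.35 to 1.09 for Itgb1 to Itgav, -0.17 to 0.90 for Itgb3 to Itgb5, -0.45 to 0.27 for Itga5 to Itgb1, -0.91 to 0.50 for Itga3 to Itgb1, -1.09 to 1.35 for Itgav to Itgb1 and 0.47 to 1.71 for Itga2 to Itgb1, the last also 1.81 with a prior count of 0.5. The cause of these turns was not tested. Low counts limit the precision for Itga2 and, with 10 counts in C57BL/6 replicate 1 and 32 in BALB/c replicate 2, for Itgav. These 2 libraries were not the shallowest, with total counts of 1521933 and 2713611 against 1035485 in BALB/c replicate 3.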
